A study of Mus musculus with 20 samples.

Results

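The genes described here encode the receptor for interleukin-2 (IL-2), the kinase and transcription factors that carry its signal, and the feedback inhibitors that this signal induces. They were chosen by name as Il2ra, Il2rb, Il2rg, Jak3, Stat5a, Stat5b, Cish, Socs1, Socs2 and Socs3. Of these 10 genes, 8 had a probe set that the array annotation names, out of 19505 genes in all, and Il2rg and Jak3 were not analysed here. Mouse regulatory T cells (Tregs), which hold back other immune cells, were profiled on 20 Clariom S arrays, 1 per sample.

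All Tregs came from C57BL/6 mice and were sorted as CD4+ CD25+ cells. In the Rheb experiment, Rheb1/2 KO Tregs (Rheb KO) and wild-type Tregs (WT) were each measured stimulated and unstimulated, with 3 arrays per group. In the Rag experiment, RagAB KO Tregs (Rag KO) and WT Tregs were each measured after 8 h of stimulation and unstimulated, with 2 arrays per group. The sources used here do not give the stimulus, how long it lasted in the Rheb experiment, the ages of the mice or the Cre driver of either knockout. Both Rheb and the Rags belong to the small GTPases and act upstream of mTORC1, a kinase complex for growth. The comparisons set Tregs without them beside WT Tregs, at rest and when stimulated.

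IL-2 is the growth and survival factor of Tregs, which make little of it themselves and take it up through a receptor of 3 chains. The alpha chain (Il2ra, CD25) raises affinity, and the beta chain (Il2rb) and the common gamma chain (Il2rg) signal through JAK1 and JAK3 to STAT5A and STAT5B. Phosphorylated STAT5 dimers bind DNA and induce, among others, Il2ra itself and the inhibitors Cish, Socs1, Socs2 and Socs3, which act back on cytokine receptors and their kinases.

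STAT5 dimers bind the palindrome TTCNNNGAA, which reads alike on both strands, so the promoters of the genes were searched for it. RefSeq windows of GRCm38.p6, from 250 bases before to 50 bases after the start of transcription, were at hand for 8 of the 10 genes, in 10 windows. Windows of Cish and Socs3 held the palindrome, which was present in 8.30% of all 32851 windows. The Cish window held it at 2 places, and 0.457% of all windows held 2 or more. The stretches that hold the matches, at chr9:107296654-107296683 on the plus strand and chr11:117969501-117969530 on the minus strand, are shown because they are the matches found among these genes; capitals mark the palindrome.
Cish: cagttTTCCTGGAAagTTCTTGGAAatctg
Socs3: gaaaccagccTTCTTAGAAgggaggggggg
Counted from the start of transcription as base 1, the Cish matches cover bases 1 to 9 and 12 to 20, and the Socs3 match covers bases -154 to -146. A match describes the letters and not binding, and the windows of Il2ra, Il2rg, Jak3, Stat5a, Stat5b and Socs1 held none.

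Values are log2 signals, so that a difference of 1 is a doubling. Medians of the arrays ran from 7.67 to 7.77 (Rheb experiment) and from 7.18 to 7.55 (Rag experiment). Within the Rag experiment, array 1 of unstimulated Rag KO and array 2 of unstimulated WT were the dimmest, with 99th percentiles of 11.3 and 11.5, against 11.9 for the next. For 6 arrays of the Rheb experiment, those of unstimulated Rheb KO and of stimulated WT, the treatment field opposes the title, and titles were followed. By that field all WT arrays would be unstimulated and all Rheb KO arrays stimulated. Between the states given by the titles, 9.37% of all genes in WT and 9.75% in Rheb KO passed the test described below. The targeted gene Rheb was lower in Rheb KO (log2 change -0.91 ± 0.12 SE over both states, adjusted p = 0.00189) and Rraga, which encodes RagA, was lower in Rag KO (-2.31 ± 0.18, adjusted p = 5.21e-05), while Rhebl1 and Rragb did not pass the test. A loss of Rhebl1 could hardly be read. On arrays of the Rheb experiment it was at most 6.10, where medians of the negative control probes were 6.86 or more. In stimulated cells it was 4.99 to 5.28 in Rheb KO, against 5.67 to 6.10 in WT. Rragb was 6.56 to 7.62 in the Rag experiment, near control medians of 6.11 to 6.62. The Treg receptors Ctla4 and Tnfrsf18 were bright in every group, with group means of at least 10.7 and 11.5, and Foxp3 was not analysed here. Of the other Treg markers, Ikzf2 and Ikzf4 had group means of at least 10.2 and 9.1. Itgae was lower in each stimulated group than in its unstimulated one. In WT it stood at 7.38 against 9.48 in the Rheb experiment and 7.53 against 9.26 in the Rag experiment. In bulk RNA, fewer cells of a type and less RNA per cell cannot be told apart, and since the labels name no separate animals, the p-values reflect the spread among these samples only, which may be technical.

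Signal over background set how far each gene could be read. The mark used was the 95th percentile of the negative control probes. It is a strict one, which 2194 to 2914 of the 19505 genes exceeded on arrays of the Rheb experiment and 2312 to 3548 on those of the Rag experiment. Il2rb and Cish exceeded it on all 12 arrays of the Rheb experiment and all 8 of the Rag experiment. Stat5a did so on 6 of 12 and 6 of 8 arrays, Stat5b on 5 of 12 and 6 of 8, Socs2 on 6 of 12 and 3 of 8, and Socs1 on 0 of 12 and 4 of 8. Il2ra and Socs3 did so on 0 arrays of either experiment, and Il2ra lay above the median of the controls on 10 of 12 and 8 of 8 arrays; the 2 below it are arrays 1 and 2 of unstimulated Rheb KO. The dim Il2ra signal belongs to cells that were sorted on its own product, CD25. Levels are not compared between genes or between the experiments, since it is not stated whether both were normalized together.

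**Figure D1:**
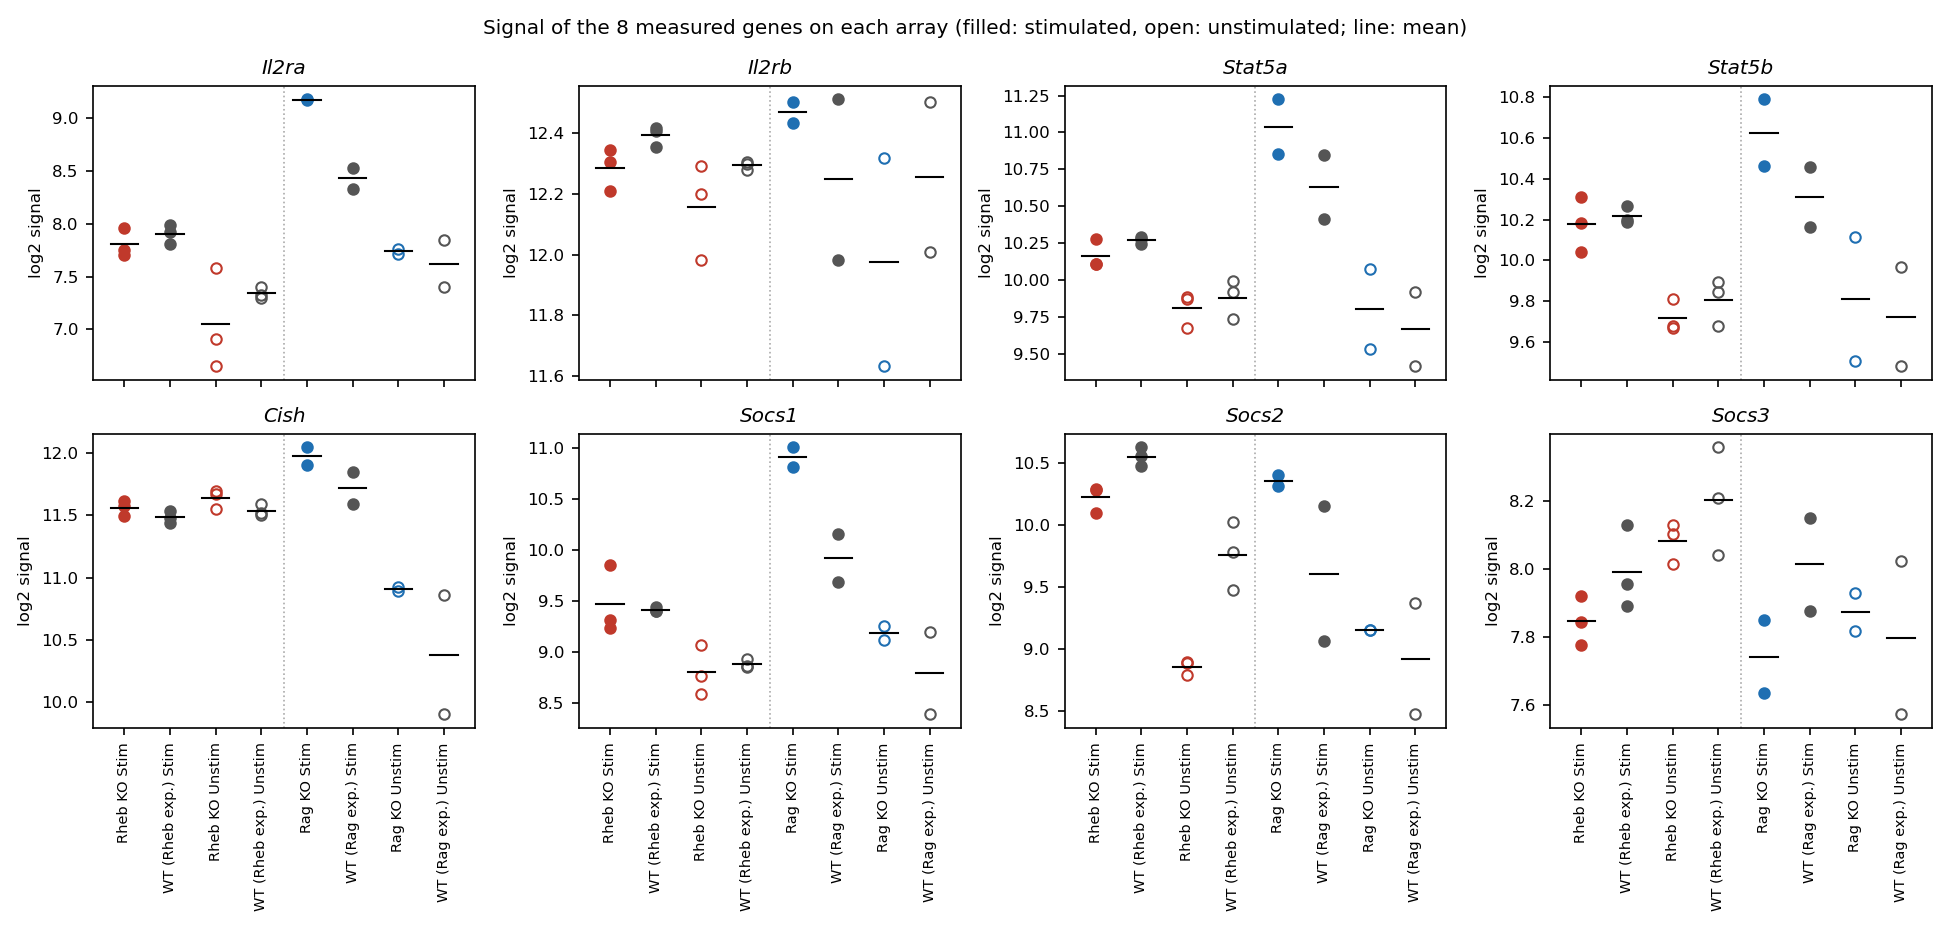
Log2 signal of each of the 8 measured genes on each array, with stimulated arrays filled, unstimulated arrays open, and the group mean as a line; axes differ between panels. Socs2 on unstimulated Rheb KO arrays (8.79 to 8.89) lies below all WT arrays of that experiment, and Cish separates stimulated from unstimulated arrays in the Rag experiment but not in the Rheb experiment.

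Socs2 was lower in unstimulated Rheb KO Tregs than in WT, and the other 7 genes had no call. Socs2 encodes an inhibitor best known for restraining growth hormone signalling through STAT5. Its signal was 8.88, 8.79 and 8.89 on the unstimulated Rheb KO arrays, against 10.02, 9.78 and 9.47 on the unstimulated WT arrays. All KO arrays lay below all WT arrays, and the WT arrays were spread more widely. The log2 change was -0.91 ± 0.13 (SE, adjusted p = 0.00693 with limma). Socs2 lay below the 95th percentile of the controls on all 3 of these KO arrays and on WT arrays 2 and 3. Its mean place among all genes of an array was the 70.5th percentile in KO and the 83.0th in WT. A gene is called here when its p, adjusted by Benjamini-Hochberg over the 19505 genes, is below 0.05, and 1 of the 8 genes was called in this comparison, where 0.508% of all genes were.

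In stimulated Tregs the Socs2 signal was 10.28, 10.29 and 10.10 on Rheb KO arrays, against 10.55, 10.62 and 10.47 on WT arrays. The arrays again did not overlap, with KO lower, but the change of -0.33 ± 0.13 was not called (adjusted p = 0.413). There 0 of the 8 genes were called, against 0.543% of all genes, and Socs2 was the 1 of the 8 with an unadjusted p below 0.05 in limma, as 1804 of the 19505 genes had. Averaged over both states Socs2 was -0.62 ± 0.09 (adjusted p = 0.00317), 1 of 8 genes called, where 1.37% of all genes were. The call in unstimulated cells and the averaged call held whichever of the 12 arrays was left out. Both were lost in a fit of all 20 arrays, whose spread includes that of the Rag experiment (adjusted p = 0.169 and 0.104).

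Markers of several cell types differed between the same groups. In unstimulated Rheb KO, summed signals were lower for T cells (14.45 to 14.48, against 14.56 to 14.61 in WT) and Treg markers (13.49 to 13.65, against 13.70 to 13.76). CD8 T cell sums were lower too (9.52 to 9.62, against 9.68 to 9.97), with 0 markers of these lists called, and B cell sums overlapped. Macrophage, dendritic cell and NK cell sums were higher. The summed signal of the 10 measured macrophage markers lay between 11.3 and 11.4 on unstimulated Rheb KO arrays, against 10.8 to 10.9 on unstimulated WT arrays, and 2 of the 10, C1qa and Ms4a7, rose. The 9 measured dendritic cell markers summed to 12.0 to 12.1 in KO, against 11.4 to 11.5 in WT, with 2 of 9 called higher, H2-Eb1 and H2-Ab1. The 7 NK cell markers summed to 10.1 to 10.3, against 9.62 to 9.97, with 1 of 7 called higher, Fcgr3 (8.65 against 7.81), the brightest of them in KO. The mean of Eomes was 8.25 against 8.20, and Klrb1c went the other way (5.72 against 6.13), while 6 of the 7 had a change above 0. In stimulated Tregs the macrophage sums lay between 10.1 and 10.2 in KO, against 10.2 to 10.4 in WT, with 0 of 10 called. Dendritic cell sums there were 10.95 to 11.06 in KO, against 10.62 to 10.89 in WT, with H2-Eb1 higher, and NK cell sums were 9.58 to 9.73 in KO, against 9.11 to 9.37 in WT, with 0 of 7 called. Of all genes, 0.508% were called between the unstimulated groups and 0.543% between the stimulated ones. The part of any of these cell types in the Socs2 result was not tested.

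The receptor chains and STAT5 genes showed no called difference between Rheb KO and WT. Il2ra was 6.65, 6.91 and 7.58 on unstimulated KO arrays, against 7.32, 7.40 and 7.29 on WT arrays, so that 1 KO array lay above all WT arrays and 2 lay below them. Its change was -0.29 in unstimulated cells, with a 95% interval from -0.68 to 0.10, and -0.10 in stimulated cells, from -0.49 to 0.29. Il2rb changed by -0.14 (-0.34 to 0.07) and -0.11 (-0.31 to 0.10). On stimulated arrays it lay lower in KO without overlap, as Socs2 did. The intervals of Stat5a, Stat5b, Cish, Socs1 and Socs3 in both states lay within -0.41 and 0.39.

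**Figure D2:**
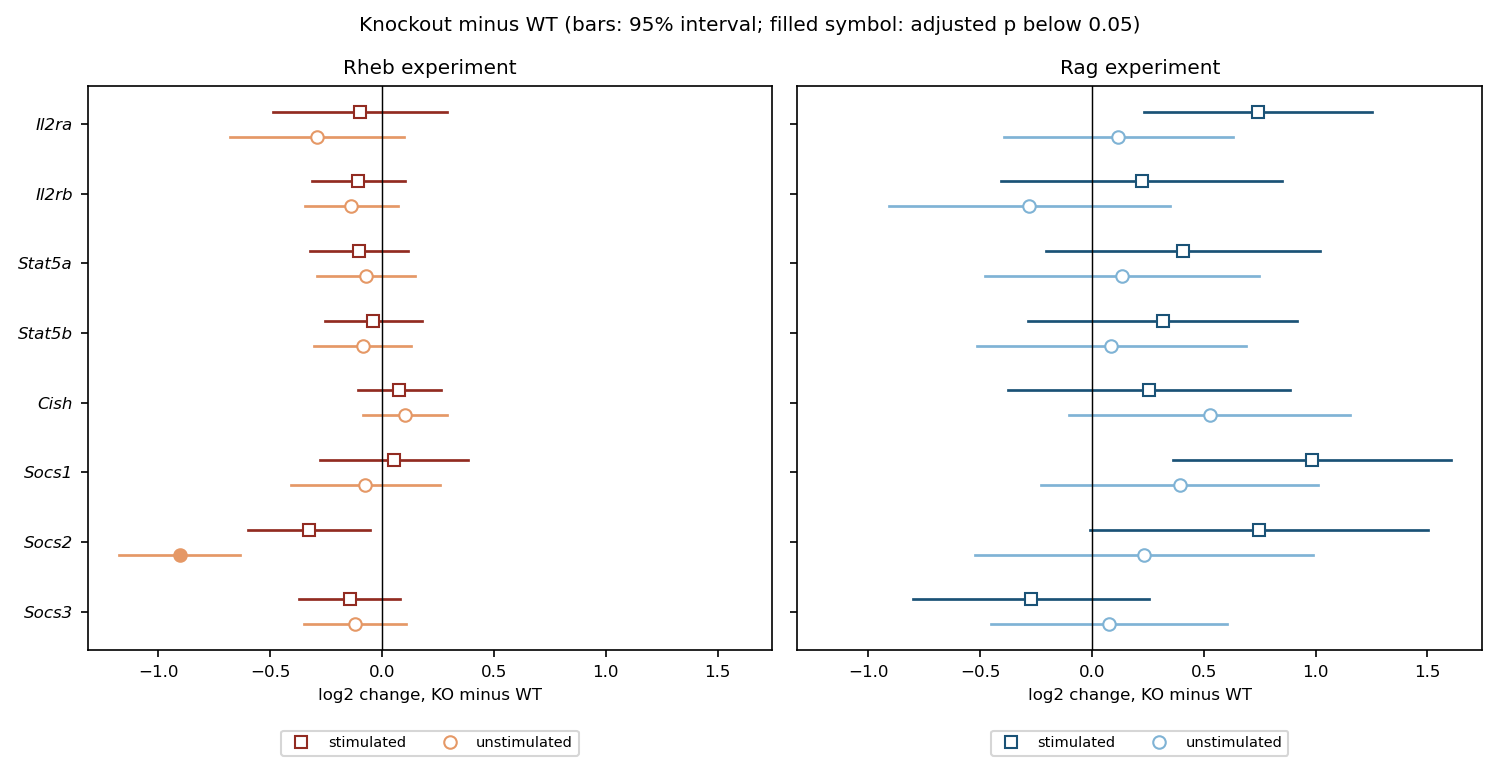
Log2 change of knockout minus WT for each of the 8 genes in stimulated (squares) and unstimulated (circles) Tregs, with 95% intervals; filled symbols have an adjusted p below 0.05. Socs2 in unstimulated Rheb KO Tregs (-0.91) is the filled symbol, and the intervals of the Rag experiment, with 2 arrays per group, are wider.

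Between Rag KO and WT no call was made among the 8 genes, with Socs1 and Il2ra furthest from 0 by p. Socs1 encodes an inhibitor that binds JAK kinases directly. On stimulated arrays its signal was 10.81 and 11.00 in Rag KO, against 10.16 and 9.69 in WT. Both KO arrays lay above both WT arrays, and the change was 0.98 ± 0.29 (adjusted p = 0.435, unadjusted p = 0.00443). Il2ra was 9.17 and 9.16 on stimulated Rag KO arrays, against 8.53 and 8.33 on WT arrays. The arrays did not overlap here either, and the change was 0.74 ± 0.24 (adjusted p = 0.559). On stimulated arrays Stat5a, Stat5b, Cish and Socs2 also lay higher in Rag KO without overlap, and Socs3 lower. With 2 arrays per group a lack of overlap says little by itself, and its share over all genes was not counted.

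Rag KO against WT gave 0 of 8 genes called in unstimulated Tregs, where 0.113% of all genes were, 0 in stimulated Tregs, where 0.103% were, and 0 in the mean of both states, where 0.328% were. With limma, 0, 2 and 2 of the 8 genes had an unadjusted p below 0.05 in these comparisons, as 1300, 988 and 1110 of all genes had, and both pairs were Il2ra and Socs1. Without the 2 dimmest arrays of the experiment, both unstimulated and so outside this comparison, the Socs1 change in stimulated cells stayed at 0.98. That setting, chosen after the data were seen, leaves 1 array in each unstimulated group. Socs1 gained a call there, and another in the fit of all 20 arrays (adjusted p = 0.0424), whose spread includes that of the Rheb experiment. Neither call came from a larger change. That last fit also called its average over both states (0.69, adjusted p = 0.0361). Markers of NK cells summed to 9.90 to 10.3 on stimulated Rag KO arrays, against 9.21 to 9.56 on WT arrays, with 0 of 7 called. Among their group means the widest gap was that of Eomes (8.94 against 7.18), and Klrd1 went the other way (5.22 against 5.49). Klrb1c (4.87 against 4.77) and Klre1 (5.49 against 5.41) differed little, and Ncr1, Fcgr3 and Gzma were higher in KO. Those of dendritic cells summed to 11.5 to 11.6 in stimulated Rag KO, against 10.6 to 10.7 in WT, with 0 of 9 called there and H2-Aa called higher in the mean of both states. The dendritic cell markers did not move together in stimulated cells. Group means were higher in KO for H2-Aa (10.37 against 8.91), H2-Eb1 (9.19 against 7.75), H2-Ab1 (8.97 against 8.15) and Xcr1 (6.41 against 5.92). They were lower in KO for Itgax, Flt3, Zbtb46, Clec9a and Siglech. The part of these cells in the Socs1 and Il2ra values was not tested.

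Socs2 in stimulated Tregs stood on opposite sides of WT in the knockouts. It was 10.40 and 10.31 on stimulated Rag KO arrays, against 10.15 and 9.06 on WT arrays, and the change of 0.75 ± 0.35 was not called (adjusted p = 0.947). It ran from 0.21 without WT array 2, the low one, to 1.29 without WT array 1. Both Rag KO arrays lay above both WT arrays, while in the Rheb experiment all KO arrays lay below all WT arrays, and the change was not called there either. Averaged over both states, the Rag effect minus the Rheb effect on Socs2 was 1.11 ± 0.25 (adjusted p = 0.0677), and 0 of 8 genes were called in this difference, where 0.256% of all genes were. With limma, 3 of the 8 had an unadjusted p below 0.05, Socs2, Socs1 and Il2ra, as 1298 of all genes had. The Socs2 difference was called without array 1 of unstimulated WT or array 1 of stimulated WT in the Rag experiment (1.33 to 1.38, adjusted p = 0.00305 to 0.00672). Socs1 was called without array 1 of unstimulated WT (0.90, adjusted p = 0.0291).

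Stimulation raised the alpha chain, both STAT5 genes and the inhibitors Socs1 and Socs2 in the Rheb experiment, while Il2rb, Cish and Socs3 were not called. Averaged over both genotypes, 5 of the 8 genes rose and 0 fell, where 17.5% of all genes were called. Their median change was 0.40, against 0.00 for all genes. The 5 calls held whichever of the 12 arrays was left out.

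Socs2 had the largest response of the 8 in this experiment. Its signal on stimulated arrays, given above, lay above that of unstimulated arrays in both genotypes, and the change was 1.37 ± 0.13 in Rheb KO (adjusted p = 1.77e-05) and 0.79 ± 0.13 in WT (adjusted p = 0.00133). Both are differences from the dim unstimulated signals described above. The difference between these responses was 0.58 ± 0.18 (unadjusted p = 0.0064) and was not called after adjustment (adjusted p = 0.685). No gene was called in this interaction (0 of 8 genes, 0% of all genes), with 1207 genes at an unadjusted p below 0.05 in limma, Socs2 being the 1 of the 8.

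Socs1 was 9.85, 9.31 and 9.23 on stimulated Rheb KO arrays, against 8.58, 8.76 and 9.06 on unstimulated ones. In WT it was 9.43, 9.40 and 9.40 when stimulated, against 8.84, 8.92 and 8.86 when unstimulated. Every stimulated array lay above every unstimulated array of its genotype. Averaged over genotypes the change was 0.60 ± 0.11 (adjusted p = 0.00151).

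Il2ra was 7.70, 7.75 and 7.96 on stimulated Rheb KO arrays, against 6.65, 6.91 and 7.58 on unstimulated ones. In WT it was 7.98, 7.92 and 7.81 when stimulated, against 7.32, 7.40 and 7.29 when unstimulated. The groups did not overlap in either genotype, and the averaged change was 0.66 ± 0.13 (adjusted p = 0.00241). The transcription factor genes moved by similar amounts: Stat5b by 0.44 ± 0.07 (adjusted p = 0.00063) and Stat5a by 0.37 ± 0.07 (adjusted p = 0.00236).

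Stat5a was 10.28, 10.11 and 10.11 on stimulated Rheb KO arrays, against 9.67, 9.87 and 9.88 on unstimulated ones, and 10.27, 10.24 and 10.29 on stimulated WT arrays, against 9.73, 9.92 and 9.99 on unstimulated ones. Stat5b was 10.31, 10.18 and 10.04 on stimulated Rheb KO arrays, against 9.67, 9.67 and 9.81 on unstimulated ones, and 10.20, 10.27 and 10.19 on stimulated WT arrays, against 9.84, 9.68 and 9.89 on unstimulated ones. For both genes each stimulated array exceeded each unstimulated array of its genotype.

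Cish was not called in the Rheb experiment. It was 11.61, 11.58 and 11.49 on stimulated Rheb KO arrays, against 11.70, 11.55 and 11.67 on unstimulated ones, and the groups overlapped. In WT it was 11.54, 11.43 and 11.48 when stimulated, against 11.50, 11.59 and 11.52 when unstimulated. The averaged change was -0.07, with a 95% interval from -0.20 to 0.07. Cish encodes an inhibitor that binds the IL-2 receptor beta chain and is among the most direct STAT5 targets. Il2rb changed by 0.11 (-0.03 to 0.26), and Socs3 by -0.22 ± 0.07 (adjusted p = 0.0556). Socs3 was called without array 3 of unstimulated WT or array 3 of stimulated WT (-0.26, adjusted p = 0.0277 to 0.0312).

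Taken by genotype, 5 of 8 genes were called in Rheb KO (9.75% of all genes) and 4 of 8 in WT (9.37% of all genes), and Il2ra made the difference. In KO it stood at 0.76 ± 0.18 (adjusted p = 0.016), while in WT it missed the threshold at 0.56 ± 0.18 (adjusted p = 0.0723). Between genotypes, these Il2ra responses did not differ beyond the test (0.19 ± 0.26). Of the calls by genotype, those of Socs2 held whichever array was left out, and so did that of Stat5b in KO. In KO, Il2ra lost its call without unstimulated KO array 1 or 2 or stimulated KO array 3 (0.56 to 0.69, adjusted p = 0.0681 to 0.0751), the first 2 of these being the arrays on which it lay below the median of the controls, and Socs1 without unstimulated KO array 1 or 2 (adjusted p = 0.0504 to 0.066). Stat5a lost its KO call without any 1 of the 6 KO arrays or WT stimulated array 1 or 2 (adjusted p = 0.0573 to 0.166). In WT, Socs1 lost its call without any 1 of the 6 WT arrays, unstimulated KO array 2 or stimulated KO array 2 (adjusted p = 0.0526 to 0.117), Stat5a without any WT array except unstimulated array 3 (adjusted p = 0.0565 to 0.114), and Stat5b without unstimulated array 2 or stimulated array 1 or 2 (adjusted p = 0.0516 to 0.0736). Il2ra in WT was called without unstimulated KO array 1 or 3 (adjusted p = 0.00581 to 0.0355).

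Several marker lists, T cell markers among them, held calls of lower signal with stimulation in the Rheb experiment. Of all genes, 17.5% were called in its averaged response, higher or lower. Averaged over genotypes, 6 of 6 T cell markers fell (median -0.40), 5 of 9 of dendritic cells (-0.41), 3 of 7 of NK cells (-0.34), 1 of 7 of B cells (-0.02) and 0 of 2 of CD8 T cells. Of the 10 macrophage markers 8 fell (median -0.71), led by Aif1 (-2.56 ± 0.12) and Csf1r (-1.76 ± 0.13), and their summed signal was 10.1 to 10.2 on stimulated KO arrays, against 11.3 to 11.4 on unstimulated ones. In WT it was 10.2 to 10.4 when stimulated, against 10.8 to 10.9 when unstimulated. The part of these cells in the responses was not tested.

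**Figure D3:**
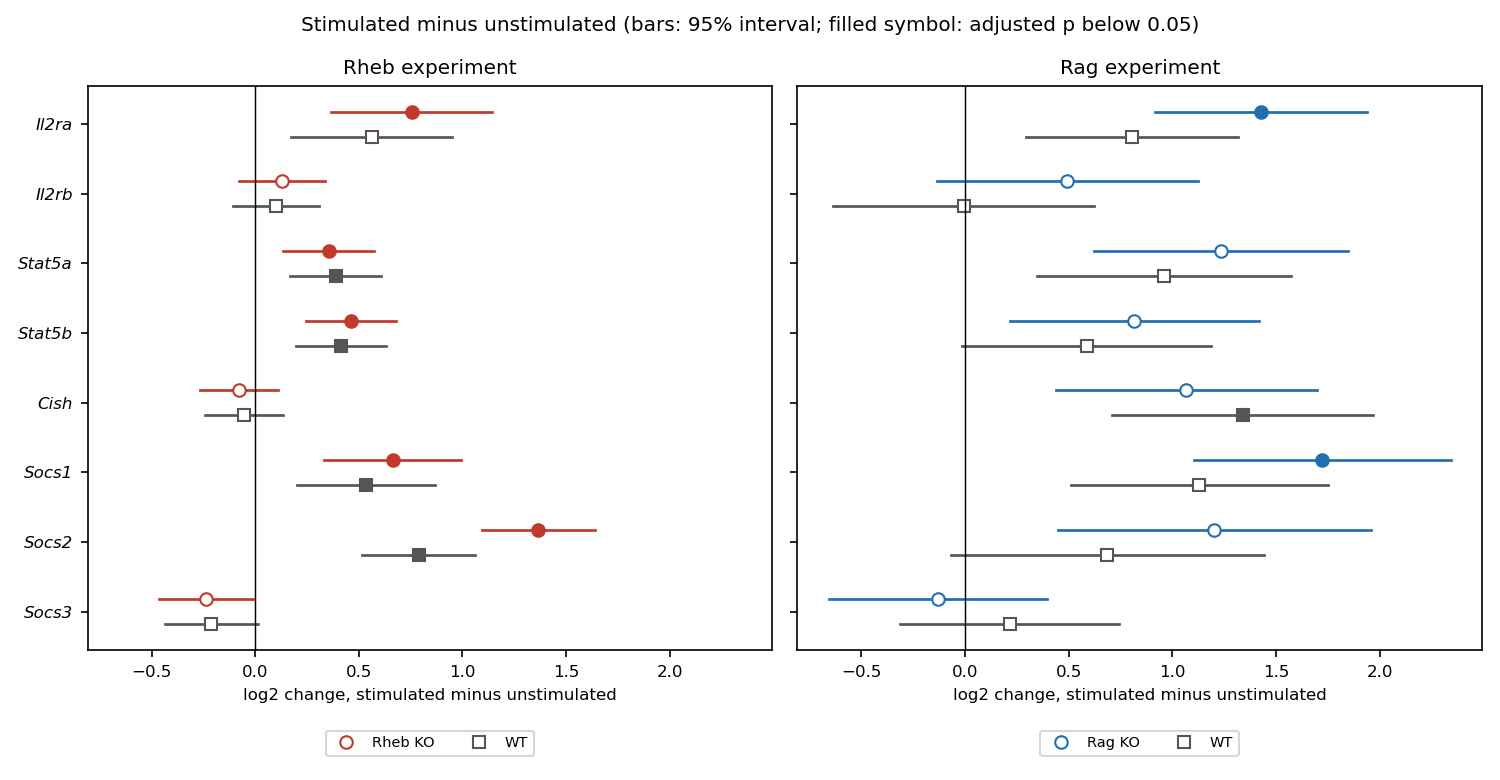
Log2 change of stimulated minus unstimulated Tregs for each of the 8 genes in knockout (circles) and WT (squares), with 95% intervals; filled symbols have an adjusted p below 0.05. Cish lies near 0 in the Rheb experiment (-0.08 in Rheb KO and -0.05 in WT) and above 1 in the Rag experiment (1.07 in Rag KO and 1.34 in WT).

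After 8 h of stimulation in the Rag experiment, a rise was called for Cish, Socs1, Il2ra, Stat5a and Socs2. Averaged over genotypes, 5 of the 8 genes rose and 0 fell, where 6.15% of all genes were called. The median of all genes was itself higher by 0.15 on stimulated arrays, and the median of the 8 genes was 1.02. After a second quantile normalization the median of all genes was 0.00, and without the 2 dimmest arrays it was 0.04.

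Cish was 12.05 and 11.90 on stimulated Rag KO arrays, against 10.89 and 10.92 on unstimulated ones, and 11.85 and 11.59 on stimulated WT arrays, against 10.86 and 9.90 on unstimulated ones. All stimulated arrays lay above all unstimulated arrays, and the dim WT array 2 was the lowest. The averaged change was 1.20 ± 0.21 (adjusted p = 0.00554), or 1.06 above the median of all genes. Without the 2 dimmest arrays it was 0.96 (adjusted p = 0.00237), and after the second quantile normalization 0.89 (adjusted p = 0.00727).

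Socs1 was 10.81 and 11.00 on stimulated Rag KO arrays, against 9.11 and 9.25 on unstimulated ones, and 10.16 and 9.69 on stimulated WT arrays, against 9.20 and 8.38 on unstimulated ones. Its groups did not overlap in either genotype, and the averaged change was 1.43 ± 0.20 (adjusted p = 0.00178). Il2ra was 9.17 and 9.16 on stimulated Rag KO arrays, against 7.72 and 7.76 on unstimulated ones, and 8.53 and 8.33 on stimulated WT arrays, against 7.84 and 7.40 on unstimulated ones. Stimulated arrays again lay above unstimulated ones, with Rag KO highest, and the averaged change was 1.12 ± 0.17 (adjusted p = 0.00245). The averaged calls of Socs1, Il2ra and Cish held whichever of the 8 arrays was left out, after the second quantile normalization and without the 2 dimmest arrays. With an array left out, a group of the Rag experiment has 1 array, which is then assumed to vary like those of the other groups, and without the 2 dimmest this holds for both unstimulated groups.

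Stat5a was 11.22 and 10.85 on stimulated Rag KO arrays, against 9.53 and 10.07 on unstimulated ones, and 10.85 and 10.41 on stimulated WT arrays, against 9.92 and 9.41 on unstimulated ones. The averaged change of 1.10 ± 0.20 (adjusted p = 0.00782) was lost, among single arrays, only without the dim unstimulated WT array 2 (0.97, adjusted p = 0.052). Socs2 was 10.40 and 10.31 on stimulated Rag KO arrays, against 9.15 on each unstimulated one. In WT it was 10.15 and 9.06 when stimulated, against 9.37 and 8.47 when unstimulated, so that the WT groups overlapped. Its averaged change of 0.94 ± 0.25 (adjusted p = 0.0405) lost its call after the second quantile normalization (0.69, adjusted p = 0.0788), without the 2 dimmest arrays (0.72, adjusted p = 0.0748), and without unstimulated WT array 2, stimulated WT array 1 or either stimulated KO array (adjusted p = 0.11 to 0.194).

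Stat5b, Il2rb and Socs3 were not called in the averaged response of the Rag experiment. Stat5b changed by 0.70 ± 0.20 (adjusted p = 0.0529) and was called without unstimulated WT array 1 or unstimulated KO array 2 (adjusted p = 0.00956 to 0.0419) and in the fit of all 20 arrays (adjusted p = 0.00141). Il2rb changed by 0.24 (-0.20 to 0.69) and Socs3 by 0.04 (-0.33 to 0.42), and both took a negative sign after the second quantile normalization (-0.18 and -0.10).

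By genotype, 2 of 8 genes were called in Rag KO, where 1.32% of all genes were, namely Socs1 (1.72 ± 0.29, adjusted p = 0.0109) and Il2ra (1.43 ± 0.24, adjusted p = 0.0109). In WT 1 of 8 was called, where 1.00% of all genes were, namely Cish (1.34 ± 0.29, adjusted p = 0.0496). Both KO calls were lost without either of the stimulated KO arrays (adjusted p = 0.0729 to 0.14 for Socs1 and 0.102 to 0.137 for Il2ra). The WT call of Cish was lost without unstimulated WT array 2 or any 1 of the 4 stimulated arrays (0.86 to 1.47, adjusted p = 0.0784 to 0.299), and without the 2 dimmest arrays (0.86, adjusted p = 0.0771). In the other direction, leaving out unstimulated arrays brought calls of Socs1 in WT (adjusted p = 0.0323 to 0.041, without WT array 1 or KO array 1 or 2), of Cish in KO (0.0482, without WT array 1 or 2), and of Stat5a and Stat5b in KO (0.00653 and 0.0292, without KO array 2). Cish in KO was also called without the 2 dimmest arrays (1.05, adjusted p = 0.0377). The interaction called 0 of 8 genes and 0% of all genes, with 1202 genes, and 0 of the 8, at an unadjusted p below 0.05 in limma. The response of Cish is thus not shown to differ between Rag KO and WT (difference -0.27 ± 0.41).

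The response of Cish differed between the experiments. Its mean place among all genes of an array was between the 97.3rd and 98.1st percentile in every group of the Rheb experiment. In the Rag experiment it was 92.0 (WT) and 96.4 (KO) when unstimulated, and 98.2 and 98.7 when stimulated. The part of the unstimulated level in the difference was not tested. The Rag response minus the Rheb response, each averaged over its genotypes, was 1.27 ± 0.19 for Cish (adjusted p = 0.000445), and this call held whichever of the 20 arrays was left out. It stood at 0.97 after the second quantile normalization and 1.02 without the 2 dimmest arrays, with adjusted p = 0.000873 and 0.000423. The median of all genes was 0.15 in this difference, and 2 of 8 genes were called, where 1.82% of all genes were. The fit behind it gives each gene 1 spread over both experiments. In separate fits the SE of the averaged Cish response was 0.21 in the Rag and 0.06 in the Rheb experiment. The error of 0.19 lies below that of the Rag part alone, so it and the p-value may be too small.

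Stat5a was the other called gene, at 0.73 ± 0.19 (adjusted p = 0.0496). This error too lies below that of its Rag response alone (SE 0.20, against 0.07 in the Rheb experiment). It lost its call after the second quantile normalization (0.46, adjusted p = 0.102), without the 2 dimmest arrays (0.46, adjusted p = 0.275) and without any 1 of 17 of the 20 arrays (0.59 to 0.82, adjusted p = 0.0504 to 0.165); the 3 others are unstimulated WT array 1, unstimulated KO array 2 and stimulated WT array 2 of the Rag experiment. Socs1 stood at 0.83 ± 0.22 (adjusted p = 0.0517) and was called without 5 single arrays, namely array 1 of unstimulated or of stimulated Rheb KO, unstimulated WT array 1, unstimulated KO array 2 or stimulated WT array 2 of the Rag experiment (0.86 to 1.03, adjusted p = 0.00354 to 0.0494). For Socs2 the difference was -0.13, not called, with an interval from -0.65 to 0.38. Stimulation may have differed in length or agent between the experiments, and experiment and protocol cannot be told apart. In the same difference, where 1.82% of all genes were called, 6 of 10 macrophage markers, 3 of 9 dendritic cell markers and 1 of 7 NK cell markers were called higher. The part of these cells was not tested.

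Relations among the genes across arrays followed the same division. Over the 12 arrays of the Rheb experiment Pearson's r between Cish and Socs1 was -0.28, and between Cish and Socs2 -0.65. Over the 8 arrays of the Rag experiment these were 0.94 and 0.89. Stat5a and Stat5b, neighbouring genes with closely related products, had r = 0.90 and 0.98, and Il2ra and Socs1 0.82 and 0.99. These values describe arrays that share stimulation groups, and in the Rag experiment also brightness.

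Genes with the most similar pattern over the 20 arrays, each experiment centred on its mean, were sought among 9444 brighter genes. Il2ra was followed most closely by Irgm1 and Nbn (r = 0.93 each) and Fosl2 (0.92), and Socs1 by Ccr8 (0.94), Fosl2 and Sik3 (0.93 each). Stat5a was nearest to Vps37b, Ncoa3 and Sik3 (0.96 each), and Stat5b to Donson (0.97), Rtn3 and Sik3 (0.96 each). Socs2 was nearest to N4bp1 (0.97), to the type 2 cytokine gene Il4 (0.94) and to Twsg1 (0.93). Cish was nearest to Plk3 (0.98), Psd and Kdm6b (0.93 each), but over the Rheb arrays alone its r was 0.52 with Plk3, -0.07 with Psd and 0.76 with Kdm6b, against 0.997, 0.96 and 0.96 over the Rag arrays.

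Some of the other JAK, STAT and SOCS genes were called with stimulation. For all lists here and below, the shares of all genes called in the averaged responses were 17.5% in the Rheb experiment and 6.15% in the Rag experiment, and no list was tested as a whole. In the Rheb experiment, averaged over genotypes, 3 of 7 other JAK and STAT genes rose and 2 fell, with a median of 0.25. Stat3, the factor downstream of IL-6 and IL-21, rose by 0.61 ± 0.07, Stat2 by 0.56 ± 0.06 and Jak2 by 0.49 ± 0.08. Jak1, the kinase bound to the beta chain, fell by 0.28. Among 4 other SOCS genes 3 rose and 0 fell, namely Socs4 (1.23 ± 0.13), Socs5 (0.47 ± 0.09) and Socs7 (0.29 ± 0.09).

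With Rag experiment arrays 2 of 7 other JAK and STAT genes rose, Jak2 (1.16 ± 0.21) and Stat3 (0.98 ± 0.26), and 1 of 4 other SOCS genes, Socs4 (0.68 ± 0.17), and 0 fell in either list. Neither list had a call in either knockout comparison of either experiment.

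Genes known to be induced by IL-2 and STAT5 were read in the same way. Averaged over genotypes, 7 of 18 rose and 3 fell in the Rheb experiment (median 0.03), and 7 of 18 rose and 0 fell in the Rag experiment (median 0.70). In the Rheb experiment the clearest were Cdk6 (0.65 ± 0.07), Xbp1 (0.73 ± 0.07), Tnfrsf4 (0.35 ± 0.06) and Tnfrsf18 (0.39 ± 0.06). Those of the Rag experiment were Nfil3 (2.68 ± 0.29), the survival gene Bcl2l1 (1.45 ± 0.17), Myc (1.15 ± 0.22) and Tnfrsf18 (1.17 ± 0.23). The Rag response minus the Rheb response was called for 4 of the 18, where 1.82% of all genes were, namely Nfil3 (2.36 ± 0.29), Bcl2l1 (1.46 ± 0.20), Myc (0.96 ± 0.21) and Pim1 (0.69 ± 0.16). In the knockout comparisons 1 of 18 was called, Nfil3, which was lower in unstimulated Rheb KO (-0.76 ± 0.10, adjusted p = 0.00536).

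Of 4 genes known to be repressed by IL-2 and STAT5, 2 fell with stimulation in the Rheb experiment, Il6ra (-1.27 ± 0.06) and Il7r (-0.83 ± 0.10), and 1 in the Rag experiment, Il6ra (-1.06 ± 0.23). Il6ra was also lower in stimulated Rheb KO than in WT (-0.43 ± 0.09, adjusted p = 0.0475).

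Among 11 cytokines and private receptor chains of the common gamma chain family, 3 rose and 3 fell with stimulation in the Rheb experiment (median 0.02), and 2 rose and 0 fell in the Rag experiment (median 0.18). Il4 led both, at 2.79 ± 0.11 in the Rheb and 2.74 ± 0.33 in the Rag experiment, and Il4ra, its receptor chain, rose by 0.43 ± 0.06 and 0.82 ± 0.20. Il21r fell by 0.74 and Il7r by 0.83 in the Rheb experiment. Il4 was the 1 gene of this list called in a knockout comparison, lower in unstimulated Rheb KO (-1.31 ± 0.16, adjusted p = 0.00485) and higher in stimulated Rag KO (2.81 ± 0.47, adjusted p = 0.0426).

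Phosphatases and adaptors of IL-2 signalling went both ways in the Rheb experiment, where 3 of 14 rose and 2 fell (median 0.05, with 17.5% of all genes called), with Ptpn6, the phosphatase SHP-1, lower by most (-0.78 ± 0.12) and Sos1 higher (0.37 ± 0.07). The Rag experiment called 0 of 14 (median 0.17, with 6.15% of all genes called), and 0 were called in the knockout comparisons.

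**Figure D4:**
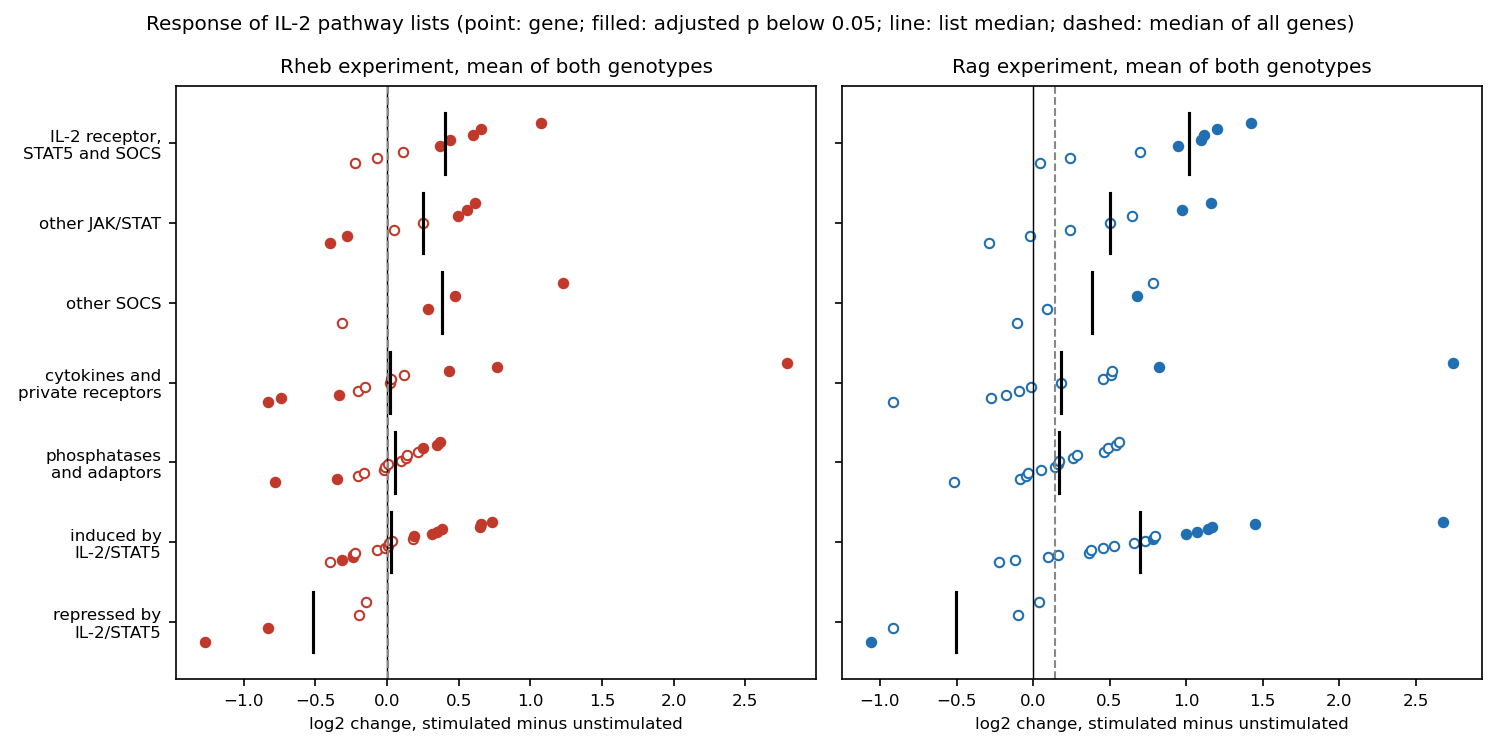
Log2 change of stimulated minus unstimulated Tregs, averaged over genotypes, for the genes of each pathway list (points, filled where the adjusted p is below 0.05), with the list median (line) and the median of all genes (dashed). The 8 genes have medians of 0.40 in the Rheb experiment and 1.02 in the Rag experiment, where the median of all genes is 0.15.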

How the data were processed

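The deposited table held log2 gene-level signals of 20 arrays, made by the authors with RMA in Affymetrix Expression Console 1.1, per the submitters' processing notes; RNA was amplified before hybridisation, per the labels. Of 28846 probe sets, 19572 carried 1 gene, and 55 genes with several sets were represented by the brightest, leaving 19505. Nothing was rescaled. Groups followed sample titles, which the treatment field opposes for 6 arrays.

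Models were fitted with limma 3.58.1 (R 4.3.3), 1 mean for every group, to the 4 groups of an experiment, and to all 8 for differences between experiments. That last fit gives each gene 1 spread for both experiments, so its errors can be too small where the Rag spread is wider. Tests are two-sided, with Benjamini-Hochberg adjustment over all genes and a threshold of 0.05. Errors are SE. The number of arrays, 3 or 2 per group, limits precision.

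The genes, lists and alternatives were chosen with earlier results of these data known. All 10 genes are named, of each other list at most 4 called genes per comparison by smallest adjusted p, plus the targets and the 3 genes most similar to each called gene. The fit was tested on simulated data. Alternatives were a second quantile normalization, the dimmest 40% of genes removed, a trended and robust prior, all 20 arrays in 1 fit, the replicate number as a block, the mean of a gene's probe sets, and each array left out. Leaving out the 2 dimmest Rag arrays, and a block with crossed numbers, were added after seeing the data.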

Additional observations from a re-analysis of the deposited data

Results flagged for a closer look

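The called differences between the experiments stand out among the 8 genes. The response of Cish to stimulation was larger in the Rag than in the Rheb experiment by 1.27 ± 0.19 (adjusted p = 0.000445). The difference was tested with 1 spread per gene for both experiments, which may make the errors given here too small. That of Stat5a was larger by 0.73 ± 0.19 (adjusted p = 0.0496), and its call was lost without any 1 of 17 of the 20 arrays (adjusted p = 0.0504 to 0.165).

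Socs2 in stimulated Tregs lay on opposite sides of WT in the knockouts, with neither change called. The log2 change was 0.75 in Rag KO (adjusted p = 0.947), with both Rag KO arrays above both WT arrays, and ran from 0.21 to 1.29 with an array left out, lowest without the low WT array 2. In Rheb KO it was -0.33 (adjusted p = 0.413), with all KO arrays below all WT arrays. The difference in stimulated cells alone was not tested, and with 2 arrays per group in the Rag experiment a lack of overlap says little by itself.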

How the results depend on the processing

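Of 2320 member effects recomputed under alternatives, 2182 kept their side of the threshold, 78 lost a call, 60 gained one and 0 reversed a call. The 2182 include 72 effects without a call that changed sign. The number of arrays and the closeness of Il2ra and Socs3 to the control probes limit these results. The mean of a gene's probe sets changed nothing for the 8 genes.

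Genes called of the 8 moved as follows. With all 20 arrays in 1 fit, the Rheb KO comparisons called 0 (unstimulated) and 0 (mean), in place of 1 and 1, the Rheb experiment responses 2 (KO) and 1 (WT), in place of 5 and 4, the Rag KO comparisons 1 (stimulated) and 1 (mean), in place of 0 and 0, and the Rag responses 6 (KO), 4 (WT) and 6 (mean), in place of 2, 1 and 5. With the dimmest 40% of genes removed the Rag responses called 5 (KO) and 2 (WT), and with the trended and robust prior 4 (KO). After the second quantile normalization the WT response of the Rag experiment called 3, the difference of knockout effects 1 in place of 0, and the difference of responses 1 in place of 2; the trended prior also gave 1 there. Without the 2 dimmest arrays the stimulated Rag KO comparison called 1, the KO response 3 (Cish gained), the WT response 0, their mean 4 (Socs2 lost) and the difference of responses 1. Where not stated above, the cause was not tested.

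Leaving out 1 array gave 1 to 1 calls for Rheb KO unstimulated and for the mean, 0 to 0 stimulated, 2 to 5 for the Rheb KO response, 1 to 5 for its WT, 5 to 6 for their mean, and 0 to 0 for the interaction. In the Rag experiment it gave 0 to 0 for the knockout comparisons and the interaction, 0 to 4 for the KO response, 0 to 2 for WT, 3 to 6 for their mean, 0 to 2 for the difference of knockout effects and 1 to 3 for that of responses.

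Same-numbered arrays were not taken as paired: their deviations correlated between -0.20 and 0.18 in 18 pairs of the Rheb experiment, where 4 of 12 arrays correlated best with their own number, and, in the Rag experiment, where 2 arrays per group give 1 value per pair of groups, at 0.17 (KO) and 0.23 (WT) between states, -0.02 (unstimulated) and 0.10 (stimulated) between genotypes, and 0.11 and -0.43 in the pairs of groups not compared. With the replicate number as a block, the responses of the Rheb experiment called 4 (KO, Stat5a lost at adjusted p = 0.0721) and 2 (WT, Stat5a and Socs1 lost), the Rag KO response 3 (Stat5a gained at adjusted p = 0.0403), the difference of knockout effects 1 and that of responses 1. A block with the WT numbers of the Rag experiment crossed was run after seeing the data, although no correlation between compared groups gave a reason to cross. It called 1 (stimulated) and 1 (mean) in Rag KO against WT, and 6 (KO) and 4 (WT) in the responses, and no result rests on it.

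Counts over all genes moved further. Over the alternatives other than left-out arrays they were 28 to 200 for Rheb KO unstimulated (99 as reported), 13 to 214 stimulated (106), 73 to 546 mean (268), 920 to 2331 for the Rheb KO response (1901), 806 to 2286 for its WT (1828), 2045 to 3762 for their mean (3404) and 0 to 7 for the interaction (0). In the Rag experiment they were 22 to 266 (22), 20 to 283 (20), 64 to 345 (64), 258 to 2146 (258), 193 to 1930 (195), 1197 to 3457 (1199) and 0 to 131 (0), in the same order, and 45 to 99 (50) and 192 to 370 (355) for the differences of knockout effects and of responses.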
